A study of Rattus norvegicus with 19 samples.

Results

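The contrast described here set 3 libraries of resting hippocampal neuron cultures (V1H, V2H and V3H) against 4 libraries of resting striatal cultures (V2S, V4S, V6S and V8S), 7 of the 19 libraries in the series. They were chosen by title. All cultures were prepared from Sprague-Dawley rat embryos (embryonic day 18) and grown for 11 days before a 1 h exposure to vehicle, which was neurobasal medium, and collection of total RNA. The same preparations from cortex (3 vehicle libraries) and the hippocampal and striatal cultures given potassium chloride for 1 h (3 libraries each) are used for comparison. For KCl, the labels of single samples give 25 mM whereas the description of the series gives 10 mM. These are wild-type primary cultures of whole dissected regions, so each library pools every cell type that survived in the dish. The methods call the libraries of a group biological replicates without saying whether each had its own dissection, and p-values measure the spread between these libraries. What was measured is the RNA read over TAPEs, an abbreviation for transcriptionally active putative enhancers, which are intergenic regions of accessible DNA from which RNA is made. Their level is in CPKM, a read count divided by the length of the TAPE in kb and by the size of the library.

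Enhancers are DNA elements that raise transcription of genes that may lie far away, and active ones are themselves transcribed into enhancer RNA, so the reads over a distal element report its activity. Hippocampus and cortex both form from the pallium, whose neurons are mostly glutamatergic and depend on factors such as Emx1, Emx2, Lhx2 and the Neurod family. The striatum forms from the lateral ganglionic eminence, whose GABAergic projection neurons depend on Dlx, Meis2, Foxp1, Bcl11b and retinoic acid receptors. Prox1 is the homeobox factor that specifies and maintains dentate gyrus granule neurons.

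Library sizes recovered from the CPKM values were 55.2 to 58.1 M reads for hippocampus and 49.6 to 58 M for striatum, of which 0.103% to 0.116% fell in TAPEs. Of 27538 TAPEs, 1870 (6.79%) reached a mean of 0.05 CPKM over all 19 libraries and were tested. The lowest mean inside this limit was 0.05 CPKM and the highest outside it rounded to the same value. At these depths 1 read over a tested TAPE was worth a median of 0.0089 CPKM, and the median tested TAPE held 11.7 reads per library, so differences at low TAPEs rest on a handful of reads. No 2 libraries were identical. On log2(CPKM + 0.05), libraries of the same region correlated at 0.771 to 0.79 across the tested TAPEs, hippocampus with striatum at 0.353 to 0.411 and hippocampus with cortex at 0.617 to 0.654. One cortical library, vehicle replicate 3, carries a striatal tissue label, but it was among the cortical pairs that correlated at 0.771 to 0.782, against 0.448 to 0.493 between cortex and striatum.

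The label was first checked on Prox1. The deposited table holds no gene levels, so each gene's profile was solved from its deposited correlations with TAPEs and is standardised, in SDs of that gene over the 19 libraries. Such a profile gives order and spread but no fold change. Prox1 stood at 1.4, 1.47 and 1.46 SD in the 3 hippocampal libraries, between -0.74 and -0.73 SD in the 4 striatal libraries and between -0.67 and -0.66 SD in the 3 cortical libraries. The hippocampal libraries did not overlap with either other region, and the difference from striatum was 2.18 ± 0.05 SD (SE; limma, adjusted p = 4.2e-06).

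The TAPE nearest to Prox1 separated the same way. It lies at chr13:108376448-108377915 (rn6), intergenic, with its centre 5217 bp from the Prox1 start site. Its level was 0.361, 0.258 and 0.346 CPKM in the hippocampal libraries and 0, 0, 0 and 0.0235 CPKM in the striatal ones. Only 1 striatal library held any read over it. The difference was 2.74 ± 0.29 on log2(CPKM + 0.05) (adjusted p = 9.6e-06), a scale on which the pseudocount makes fold changes of low TAPEs too small. In cortex it was 0, 0.0564 and 0 CPKM.

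Across the tested TAPEs, limma called 246 higher in hippocampus (13.2% of 1870) and 336 higher in striatum (18%) at an adjusted p under 0.05. In 229 and 307 of them, respectively, no hippocampal library overlapped with a striatal one, beside 36.1% of all tested TAPEs with groups that do not overlap. The called TAPEs had a median difference of 1.28 log2 units on the hippocampal side and 1.12 on the striatal side, and 36 and 30 of them reached 2 log2 units. The median of all tested TAPEs lay at -0.17, and centring each library on its median moved it by 0.12 and the calls to 294 higher in hippocampus and 273 higher in striatum. The larger striatal count therefore depended on scaling by total reads. It also depended on the minimum level: fitting every TAPE gave 134 higher in hippocampus and 114 higher in striatum, whereas a minimum of 0.1 CPKM gave 156 and 196. In these bulk libraries fewer cells of a type and less RNA per cell cannot be told apart.

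**Figure D1:**
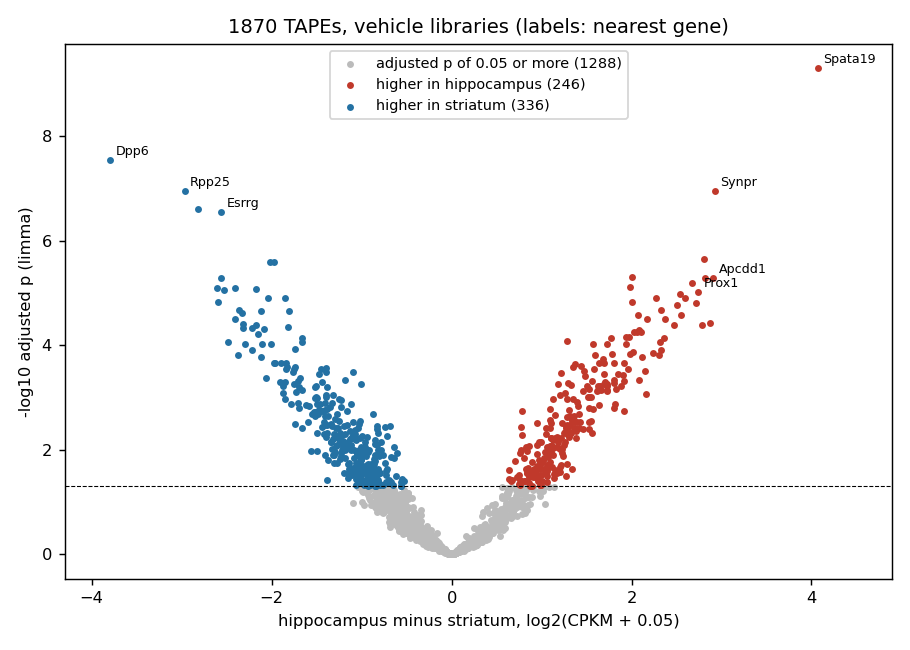
Each point is 1 of the 1870 tested TAPEs, with the difference between hippocampus and striatum on log2(CPKM + 0.05) on the x axis and -log10 of the limma adjusted p on the y axis. The dashed line marks an adjusted p of 0.05, and labels give the nearest gene; 246 TAPEs are called to the right and 336 to the left.

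TAPEs of one locus are not independent, since a single transcript can cross several of them. When called TAPEs of one direction no more than 100 kb apart were joined, the 246 fell into 189 loci and the 336 into 277, with at most 8 in 1 locus on either side. The TAPEs called higher in hippocampus lay farther from genes, at a median of 75170 bp from the nearest start site, than those called higher in striatum (39768 bp) or the uncalled ones (36733 bp). They had a median of 11 genes within 1 Mb, against 15 for both other groups. These distances are descriptive.

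The hippocampal side was led by an element at chr8:28841568-28844421, which lies 388032 bp from its nearest gene, Spata19. It gave 5.55, 5.55 and 5.69 CPKM in hippocampus and 0.247, 0.353, 0.206 and 0.363 CPKM in striatum, a difference of 4.07 ± 0.18 log2 units (adjusted p = 5.1e-10). The gene within 1 Mb whose profile followed it best was Opcml, an adhesion molecule of the IgLON family, with r = 0.87 over the 19 libraries. Opcml starts 610649 bp away, and Spata19 itself was not called (-0.33 SD, limma adjusted p = 0.78). Cortex stood between the other regions at 2.83, 3.26 and 2.81 CPKM.

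At chr15:14884619-14887883, 148547 bp from the start of Synpr, the hippocampal libraries held 1.22, 1.39 and 1.48 CPKM. The 4 striatal libraries held 0.0952 to 0.174 CPKM, and the difference was 2.93 ± 0.2 log2 units (adjusted p = 1.1e-07). Synpr, which encodes the synaptic vesicle protein synaptoporin, had the opposite order: its own level in hippocampus minus that in striatum was -1.9 ± 0.05 SD (adjusted p = 4.2e-06). The element and its nearest gene were thus high in different regions.

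Near other leading hippocampal elements lay genes that were also higher there. The TAPE at chr18:58257352-58260757, 11356 bp from Apcdd1, held 0.363, 0.344 and 0.457 CPKM in hippocampus and 0, 0, 0.0101 and 0.0254 CPKM in striatum (2.91 ± 0.29 log2 units, adjusted p = 5.2e-06). Apcdd1 is a membrane inhibitor of Wnt signalling, and its own profile was 2.36 ± 0.05 SD higher in hippocampus. A TAPE at chr5:120327798-120331739, 10878 bp from Dnajc6, the clathrin-uncoating protein auxilin, held 0.507, 0.572 and 0.464 CPKM against 0.0175 to 0.0394 CPKM in striatum (2.8 ± 0.25 log2 units, adjusted p = 2.3e-06). Dnajc6 itself was 2.28 ± 0.06 SD higher. The element at chr10:63551151-63553948 held 1.04, 0.997 and 1.03 CPKM against 0.16 to 0.264 CPKM (2.01 ± 0.19 log2 units, limma adjusted p = 5e-06). Its best-correlated gene was Cpd, carboxypeptidase D, at 227350 bp with r = 0.96. The difference of the nearest gene, Bhlha9, was exactly 0 SD, as for a profile that does not vary over these libraries, so this gene is uninformative.

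At chr19:59665311-59667176, 164082 bp from Irf2bp2, no striatal library held a read while hippocampus had 0.265, 0.277 and 0.262 CPKM. The hippocampal mean was 37.1-fold above a floor of 3 reads over the 4 striatal libraries together. Reads are paired and both of a pair can be counted. The floor may therefore stand for fewer fragments, and the ratio is no firm lower bound. No striatal read lay over chr2:13066657-13069054 either, with 0.206, 0.23 and 0.295 CPKM in hippocampus, 43.3-fold above the same kind of floor. That element is 1 of 3 neighbours between 13057463 and 13069054 on chr2, all called, which lie 525245 to 533577 bp from the nearest start site, that of Ccnh. Their best-correlated gene was Rasa1, a Ras GTPase-activating protein, which was 2.46 ± 0.18 SD higher in hippocampus, whereas Ccnh was lower there, at -1.47 SD (adjusted p = 0.00074).

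**Figure D2:**
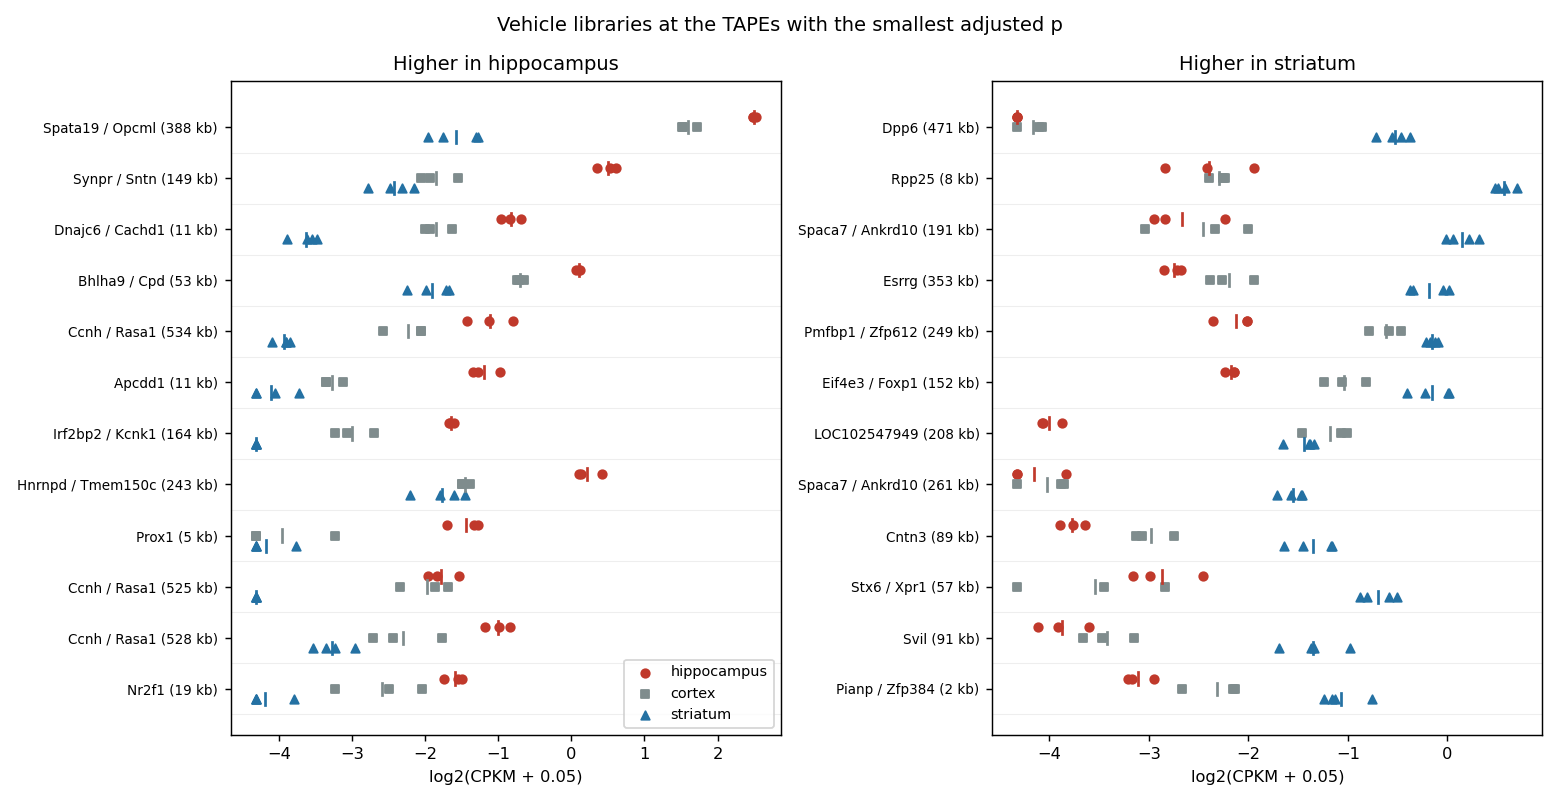
Each row is a TAPE among the 12 with the smallest adjusted p in each direction, labelled by its nearest gene, its best-correlated gene where this is another one, and the distance to the nearest start site. Points are single vehicle libraries on log2(CPKM + 0.05) and short bars are group means; hippocampal and striatal points do not overlap in any row, and cortex lies between them in most.

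Several loci on the hippocampal side held runs of called elements. Around Nr2f1, the nuclear receptor COUP-TFI that patterns cortex and hippocampus, 4 TAPEs between 5552233 and 5565145 on chr2 differed by 1.41 to 2.6 log2 units. The strongest of them, chr2:5559777-5561615 at 19198 bp from the start site, held 0.25, 0.29 and 0.305 CPKM in hippocampus and 0, 0.0219, 0 and 0 CPKM in striatum (adjusted p = 1.2e-05), and Nr2f1 was 1.73 ± 0.05 SD higher. Beside Nfia, a factor of gliogenesis and neuronal maturation, 4 TAPEs differed by 1.13 to 1.43 log2 units, and Nfia was 2.44 ± 0.12 SD higher. Grik4, a kainate receptor subunit of CA3 neurons, had 3 called TAPEs at 78749 to 142480 bp. The farthest, chr8:47235112-47238553, was the strongest, at 0.478, 0.731 and 0.658 CPKM against 0.0351 to 0.128 CPKM (2.33 ± 0.27 log2 units, adjusted p = 2.1e-05). The 2 weaker ones had adjusted p of 0.011 and 0.021. The first lost its call without hippocampus replicate 2 (0.055), and the second without hippocampus replicate 1 (0.054) or 2 (0.1), without striatum replicate 2 (0.059) or 6 (0.062), and with a pseudocount of 0.01 (0.053). Grik4 itself was 2.38 ± 0.12 SD higher in hippocampus.

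Of 10 tested TAPEs nearest to genes of the pallial glutamatergic list, 2 were higher in hippocampus and 1 higher in striatum. The TAPE at chr2:102680053-102681830, 4572 bp from Bhlhe22, held 0.318, 0.262 and 0.122 CPKM in hippocampus against 0, 0, 0.0194 and 0 CPKM in striatum (2.32 ± 0.32 log2 units, adjusted p = 8.5e-05). Bhlhe22 is a basic helix-loop-helix factor of pallial projection neurons. A TAPE 159991 bp from Eomes, the factor of intermediate progenitors, was 1.08 ± 0.29 log2 units higher (adjusted p = 0.011). The one higher in striatum lay 401179 bp from Sox5, a factor of early corticofugal neurons, at -1.53 ± 0.32 log2 units (adjusted p = 0.0019), and Sox5 itself was not called (0.1 SD, adjusted p = 0.36). Near Wnt7b, a secreted Wnt ligand, the TAPE at chr7:126495750-126500319 was 2.06 ± 0.27 log2 units higher (adjusted p = 5.6e-05), from 0.173 to 0.186 CPKM in hippocampus and 0 to 0.0154 CPKM in striatum.

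Other hippocampal runs lay in places with few named genes. On chr7, 8 TAPEs between 452004 and 539747 and 7 more between 667497 and 738296 were nearest to LOC102554748. Another 8 between 22361815 and 22396688 lay 618215 bp or more from any start site, the nearest being that of LOC300308. At the start of chr12, 6 TAPEs up to position 118814 differed by 0.92 to 2.72 log2 units, with Brca2 as the nearest gene at 387475 bp or more, and Brca2 itself was not called (0.58 ± 0.36 SD, adjusted p = 0.24). LOC300308 itself was higher in striatum, at -2.25 ± 0.54 SD (adjusted p = 0.014), and was also the nearest gene of a run of 8 TAPEs higher in striatum, between 23031099 and 23133621 on chr7.

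The striatal side was led by chr4:4943207-4944903, a TAPE 470748 bp from Dpp6, an auxiliary subunit of Kv4 potassium channels. It held no read in any hippocampal library and 0.56, 0.629, 0.722 and 0.672 CPKM in striatum (difference -3.79 ± 0.23 log2 units, adjusted p = 2.9e-08). The striatal mean was 62-fold above a floor of 3 reads over the hippocampal libraries. Next came chr8:62274612-62275990, 8035 bp from Rpp25, a ribonuclease P subunit gene, with 1.44, 1.37, 1.34 and 1.58 CPKM in striatum and 0.0898, 0.137 and 0.21 CPKM in hippocampus (-2.97 ± 0.21 log2 units, adjusted p = 1.1e-07). Rpp25 itself was lower in hippocampus, at -2.08 ± 0.15 SD. In both elements cortex stood with hippocampus, at 0 to 0.00945 CPKM and 0.14 to 0.163 CPKM.

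The TAPE at chr13:106109493-106111927 lies 352658 bp from Esrrg, an orphan nuclear receptor, whose correlation with it was r = 0.97 and whose profile could not be solved. It held 0.723, 0.736, 0.921 and 0.958 CPKM in striatum against 0.102, 0.106 and 0.0893 CPKM in hippocampus (-2.56 ± 0.19 log2 units, adjusted p = 2.9e-07). Cntn3, a contactin of the immunoglobulin superfamily, had a TAPE 88949 bp away with 0.27 to 0.398 CPKM in striatum and 0.0172 to 0.0301 CPKM in hippocampus (adjusted p = 8.1e-06), and Cntn3 was at -2.22 ± 0.06 SD. Svil, the actin-binding protein supervillin, had one 91289 bp away with 0.259 to 0.458 CPKM against 0.00782 to 0.0321 CPKM (adjusted p = 8.8e-06), and Svil was at -2.09 ± 0.05 SD.

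Factors of the striatal lineage had called elements too. The TAPE at chr4:131956666-131960666 held 0.955, 0.962, 0.703 and 0.807 CPKM in striatum and 0.177, 0.176 and 0.163 CPKM in hippocampus (-2.02 ± 0.18 log2 units, adjusted p = 2.5e-06). Foxp1 starts 263911 bp away and followed it with r = 0.98, at -2.37 ± 0.1 SD in hippocampus relative to striatum. The nearer gene, Eif4e3 at 152413 bp, ran the other way at 2.28 ± 0.09 SD. Mn1, a transcriptional regulator expressed in the developing striatum, had 4 called TAPEs between 50928762 and 51003380 on chr12. One of these, chr12:50950307-50953159, held 0.265, 0.275, 0.163 and 0.194 CPKM in striatum and 0.0124, 0.0121 and 0 CPKM in hippocampus (-2.22 ± 0.29 log2 units, adjusted p = 4.7e-05).

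Ppp1r1b encodes DARPP-32, the dopamine-regulated phosphatase inhibitor of striatal projection neurons. The TAPE 3084 bp from its start site, chr10:86299901-86301386, held 0.415, 0.244, 0.337 and 0.291 CPKM in striatum and 0.0833, 0.0232 and 0 CPKM in hippocampus (-2.22 ± 0.32 log2 units, adjusted p = 0.00012). Ppp1r1b itself was at -2 ± 0.07 SD. With all 27538 TAPEs in the fit, without the minimum level, the adjusted p of this TAPE was 0.053. The same fit also ended the calls of the Eomes element (0.097), the Sox5 element (0.068) and the 2 weaker Grik4 elements (0.097 and 0.31).

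Runs on the striatal side included 5 TAPEs between 82477815 and 82614936 on chr16. They differed by 1.73 to 2.82 log2 units, and the strongest, chr16:82477815-82479820, held 0.939, 1.11, 0.989 and 1.2 CPKM in striatum against 0.0793, 0.163 and 0.0903 CPKM in hippocampus (adjusted p = 2.5e-07). Their nearest gene, Spaca7, was not called (-0.26 SD, adjusted p = 0.87), whereas Ankrd10, 727187 bp from the strongest of them, was at -2.09 ± 0.12 SD with r = 0.98. Between 72860818 and 72872981 on chr13, 4 TAPEs nearest to Stx6 were higher in striatum by 1.7 to 2.18 log2 units. Stx6, a syntaxin of the trans-Golgi network, was higher in hippocampus (2.29 ± 0.12 SD), and Xpr1, a phosphate exporter gene, was lower there (-2.25 ± 0.08 SD). The run of 8 nearest to LOC300308, 4 TAPEs beside Usp29 and Mir3099 and 4 more on chr1, whose best-correlated genes were Snrpn and Snurf, were also called, and Snrpn itself was not (0.16 ± 0.18 SD, adjusted p = 0.49).

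The nearest gene was measured for 242 of the 246 hippocampal TAPEs and 330 of the 336 striatal ones. Over all 16733 solved genes, 4592 were higher in hippocampus (27.4%) and 4825 higher in striatum (28.8%), so most genes passed the test. Of the nearest genes of hippocampal TAPEs, 125 (51.7%) were higher in hippocampus and 56 (23.1%) lower. For striatal TAPEs, 53 (16.1%) were higher in hippocampus and 169 (51.2%) lower. Around uncalled TAPEs, 390 of 1269 were higher (30.7%) and 423 lower (33.3%). Counting each gene once gave 92 higher and 40 lower of 183 on the hippocampal side and 44 and 134 of 268 on the striatal side. Within 100 kb, 78 of 141 hippocampal TAPEs had a nearest gene higher in hippocampus (55.3%), and beyond it 47 of 101 (46.5%). The TAPE calls did not use the gene profiles, but both come from the same libraries.

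**Figure D3:**
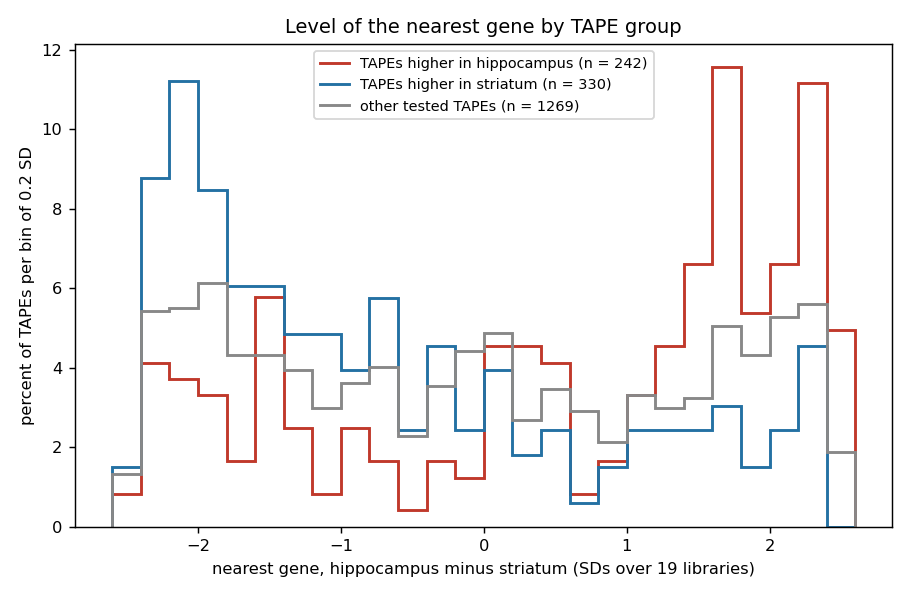
The x axis is the difference of the nearest gene between hippocampus and striatum in SDs of that gene over 19 libraries, and the y axis is the percent of TAPEs in each bin of 0.2 SD. Nearest genes of the 242 hippocampal TAPEs gather on the right, those of the 330 striatal TAPEs on the left, and those of the 1269 other TAPEs spread over both sides.

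The best-correlated gene within 1 Mb was higher in hippocampus for 202 of 243 hippocampal TAPEs and lower for 283 of 325 striatal ones. That gene was picked for following the TAPE over these same libraries, so its direction is a description only. It was also the nearest gene for 88 hippocampal TAPEs (35.8%), 76 striatal TAPEs (22.6%) and 196 uncalled ones (15.2%).

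Genes of known regional roles were then counted list by list, beside a median difference of 0 over all genes and the 27.4% and 28.8% called. All 11 solved genes of 14 in the hippocampal patterning list were higher in hippocampus, with a median of 2.07 SD. Besides Prox1 these included Wnt8b (2.28 ± 0.12 SD), a signal of the cortical hem, Lhx9 (2.28 ± 0.1 SD), Lhx2 (2.21 ± 0.08 SD) and the Wnt effector Lef1 (2.3 ± 0.12 SD). Of 10 field markers 7 were higher and 1 lower. Trpc6 (2.23 ± 0.11 SD), a cation channel, and C1ql2 (2.1 ± 0.17 SD), a synaptic organiser of mossy fibres, were among the higher ones, and Ociad2 was lower at -2.1 ± 0.24 SD. Of 16 pallial glutamatergic genes 9 were higher, led by Neurod1 (2.15 ± 0.05 SD) and the vesicular glutamate transporter Slc17a7 (2.36 ± 0.06 SD). The 4 lower ones were Mef2c, Cux1, Cux2 and Bcl11a, all transcription factors.

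The lists of striatal genes ran the other way. Of 17 signalling genes of striatal projection neurons 13 were higher in striatum, with a list median of -1.97 SD. Examples were the dopamine receptors Drd2 (-2.2 ± 0.06 SD) and Drd1 (-1.91 ± 0.08 SD) and prodynorphin, Pdyn (-1.97 ± 0.06 SD). Rasd2, Chrm4 and Ptpn5 on that list were higher in hippocampus instead. Of 15 striatal lineage factors 11 were higher in striatum, with Bcl11b, Meis2, Foxp2 and the retinoic acid receptor Rarb between -2.33 and -2.12 SD, and Rxrg was higher in hippocampus. Of 16 Dlx and GABAergic genes 13 were higher in striatum, including the GABA-synthesising enzymes Gad2 (-1.92 ± 0.05 SD) and Gad1 (-1.82 ± 0.06 SD). The exception was Calb2, calretinin, at 2.14 ± 0.1 SD.

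Among signalling pathways, 13 of 18 Wnt genes were higher in hippocampus than in striatum and 2 lower. The higher ones spanned ligands (Wnt7b, 1.86 ± 0.06 SD; Wnt3a, 2.11 ± 0.46 SD), the receptor Fzd9 (2.11 ± 0.13 SD), the enhancer of signalling Rspo2 (2.39 ± 0.06 SD) and β-catenin itself, Ctnnb1 (2.03 ± 0.12 SD). They also included Dkk3 (2.38 SD) and the inhibitors of signalling Nkd1 (1.33 SD) and Axin2 (1.02 SD). The lower ones were the ligand Wnt7a (-1.96 ± 0.18 SD) and the secreted inhibitor Sfrp1 (-1.87 ± 0.24 SD). Activity of the pathway was not tested. Against cortex the Wnt list was split, with 7 genes above and 7 below. Of 16 retinoic acid genes 6 were higher and 6 lower. The receptors Rarb, Rara and Rxrb were among the lower ones and the synthesising enzyme Aldh1a1 (2.1 ± 0.31 SD) and the binding protein Crabp1 (2.02 ± 0.08 SD) among the higher ones. Of 19 activity-regulated early genes 7 were higher and 5 lower, with Fos at -0.25 ± 0.06 SD and Egr1 at 0.46 ± 0.06 SD on a scale that includes the KCl libraries.

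Markers of other cell types also moved with region, and their part in the results above was not tested. Of 9 solved astrocyte genes 8 were higher in hippocampus and none lower, and their mean level was 0.37 to 0.54 SD in the hippocampal libraries against -1.09 to -1.01 SD in the striatal ones. Gfap, the astrocyte filament protein, was at 1.38 to 1.45 SD in hippocampus and -0.71 SD in all striatal libraries. Oligodendrocyte lineage genes were higher for 5 of 11, including Olig1 (2.31 ± 0.11 SD), and lower for 1, and of 4 tested TAPEs nearest to genes of this list 1, 8046 bp from Olig2, was higher in hippocampus (1.09 ± 0.22 log2 units, adjusted p = 0.0016) and 1, nearest to Mog, higher in striatum (-1.19 ± 0.27 log2 units, adjusted p = 0.0035). The 1 tested TAPE nearest to an astrocyte gene, Sox9, was higher in striatum (-1.49 ± 0.35 log2 units, adjusted p = 0.0048), although Sox9 itself was higher in hippocampus (1.08 SD). Without the minimum level in the fit, that TAPE was no longer called (adjusted p = 0.16). Vascular and meningeal genes were higher for 5 of 8, cycling and progenitor genes for 6 of 9 with 2 lower, Cajal-Retzius and choroid genes for 4 of 5 with 1 lower, and microglial genes for 1 of 7. Even pan-neuronal genes were unequal, with 6 of 10 higher in hippocampus and 2 lower. Mean levels over these lists ranged, for vascular genes, from 0.43 to 0.81 SD in hippocampus and -0.55 to -0.1 SD in striatum, and for the oligodendrocyte lineage from -0.18 to 0.29 SD and -0.83 to -0.27 SD. Standardised profiles do not show whether a marker is at zero.

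**Figure D4:**
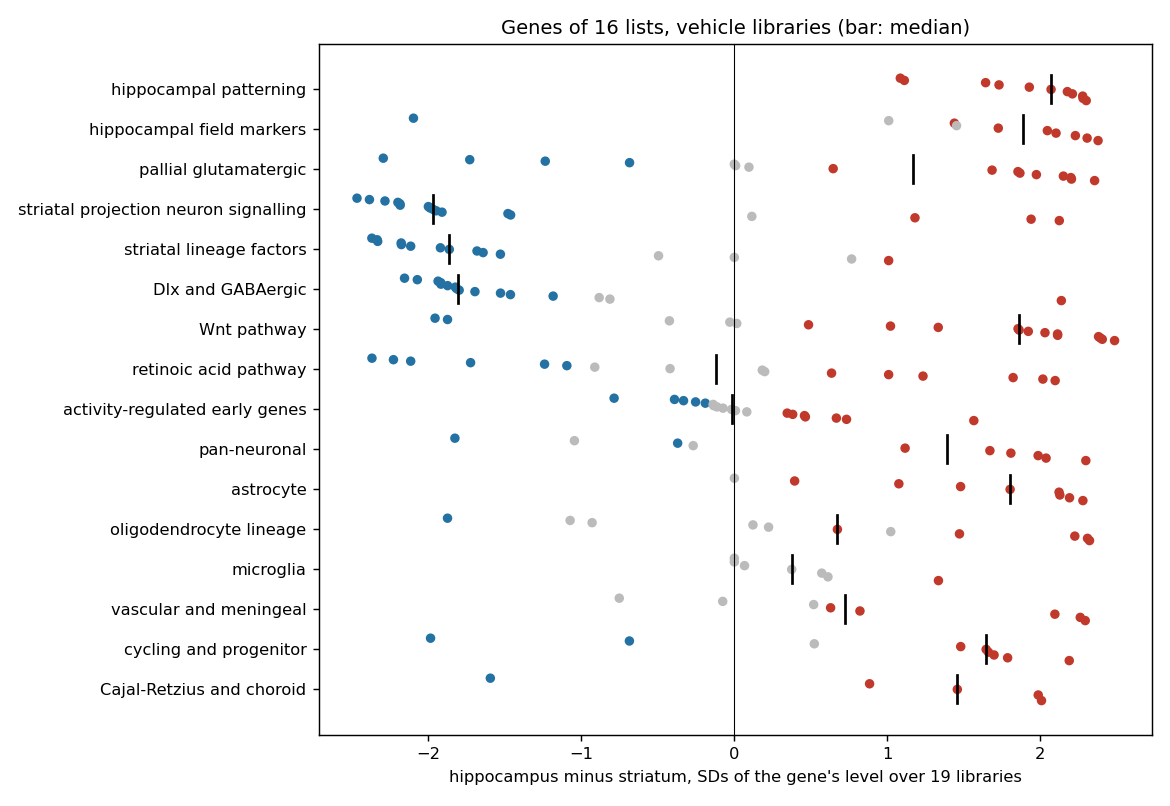
Each point is 1 solved gene of a list, placed by its difference between hippocampus and striatum in SDs of that gene over 19 libraries; red marks genes higher in hippocampus and blue genes lower there at an adjusted p under 0.05, grey the rest, and black bars are list medians. The hippocampal patterning list lies wholly to the right with a median of 2.07, and the striatal signalling, striatal lineage and GABAergic lists have medians between -1.97 and -1.81.

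Many genes were tied at the smallest adjusted p (4.2e-06). Among these, the smallest unadjusted p values in favour of hippocampus belonged to Adamts12, Ak5, Nf1x, Pcdh1, Sparcl1, Pcsk2, Rtn4rl2, Clstn2, Apcdd1 and Rnf182, with differences of 2.26 to 2.43 SD. On the striatal side they included those of Inpp4b, Svil, Lpin3, Rcan2, Trappc9, Dzip1, Gnal, Srrd and Lrrc1. Gnal encodes Golf, the G protein α subunit that couples striatal dopamine and adenosine receptors to adenylyl cyclase, and stood at -2.09 ± 0.05 SD.

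MicroRNA genes were the nearest gene of 66 tested TAPEs, of which 9 were higher in hippocampus (13.6%, beside 13.2% of all tested TAPEs) and 19 higher in striatum (28.8%, beside 18%). MicroRNAs pair through bases 2 to 8, the seed, with their target transcripts. The libraries hold long RNA, so what was measured is transcription around these genes and not the mature molecules. For the miRNA genes nearest to 2 or more called TAPEs, mature sequences given by RefSeq (GRCr8) are printed below, with the seed in capitals. They need not be all products of these genes. For Mir99a, Mir125b1 and Mir107 only a 3p sequence is printed. Mir124-1 is named only.
rno-let-7c-5p: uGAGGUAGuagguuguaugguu
rno-let-7c-2-3p: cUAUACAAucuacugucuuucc
rno-miR-99a-3p: cAAGCUCGuuucuaugggucug
rno-miR-107-3p: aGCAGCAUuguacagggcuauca
rno-miR-125b-1-3p: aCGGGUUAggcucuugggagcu

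None of these 5 molecules shares a seed with another, and other products of these genes were not compared. The called TAPEs nearest to Mirlet7c2 and Mir99a were higher in hippocampus. Between 15752521 and 15860785 on chr11, 5 TAPEs nearest to Mir99a were higher there, the strongest being chr11:15856385-15860785 at 193568 bp with a mean of 0.386 CPKM in hippocampus and 0.062 in striatum (1.93 ± 0.27 log2 units, adjusted p = 9.3e-05). The gene profile of Mir99a was 1.46 ± 0.41 SD higher (adjusted p = 0.024). A pair of TAPEs 44840 and 59417 bp from Mirlet7c2 were higher by 0.83 and 1.38 log2 units (adjusted p = 0.0087 and 0.0043). They share 1 run of 4 called TAPEs with the Wnt7b element above. In the KCl libraries the nearer was called (0.84 log2 units, limma adjusted p = 0.018) and the farther was not (0.1, adjusted p = 0.87). On the striatal side, 3 TAPEs 17483 to 49434 bp from Mir107 differed by -1.88 to -1.04 log2 units. None of these 3 was called in the KCl libraries (-0.62 to -0.19 log2 units, limma adjusted p = 0.2 to 0.74). A pair of elements 203656 and 163128 bp from Mir125b1 differed by -1.71 and -1.43 log2 units, and the best-correlated gene of both was Tecta. Elements 8507 and 17402 bp from Mir124-1, a copy of the neuronal miR-124 genes, differed by -1.79 and -1.34 log2 units (adjusted p = 0.0013 and 0.007), and 1 TAPE 9257 bp from Mir124-2 by -1.4 ± 0.22 log2 units. The profiles of Mir107 (-2.42 ± 0.24 SD) and Mir124-1 (-2.12 ± 0.23 SD) were lower in hippocampus, and that of Mir125b1 was not called (-0.89 ± 0.43 SD, adjusted p = 0.14). Short genes collect few reads, which limits these profiles.

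The KCl libraries are separate libraries of the same regions and allow the contrast to be read a second time. There, 222 TAPEs were higher in hippocampus (11.9%) and 317 higher in striatum (17%). Both lists shared 164 hippocampal TAPEs, which is 66.7% of the vehicle list and 73.9% of the KCl list, and 200 striatal TAPEs, which is 59.5% and 63.1%. The sign was kept in 235 of the 246 and 326 of the 336. The Prox1 element held 0.37, 0.288 and 0.34 CPKM in hippocampus with KCl and 0.0251 to 0.0261 CPKM in striatum, and the Dpp6 element held 0.641 to 0.734 CPKM in striatum against 0.00982 to 0.0104 CPKM.

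A test of whether the regional difference itself changed with KCl called 1 TAPE, and 147 had an unadjusted p under 0.05. That TAPE, chr4:77413446-77416130, lies 67777 bp from Ezh2, the histone H3K27 methyltransferase. At rest it held 0.119, 0.154 and 0.162 CPKM in hippocampus and 0.361, 0.42, 0.308 and 0.605 CPKM in striatum, and with KCl 0.906, 0.532 and 0.707 against 0.331, 0.343 and 0.435 CPKM. Its order was thus opposite in the KCl libraries (interaction 2.1 ± 0.33 log2 units, adjusted p = 0.0021), with a resting difference of -1.25 ± 0.24 log2 units that was lost without the minimum level (adjusted p = 0.079), while Ezh2 was lower in hippocampus in both states, at -1.4 SD with vehicle and -1.53 SD with KCl. A TAPE 37782 bp from Fos, chr6:109261263-109264039, was already higher in resting striatum, at 0.152 to 0.222 CPKM against 0 to 0.0127 CPKM (-2.01 ± 0.28 log2 units, adjusted p = 9.3e-05). With KCl it held 0.564 to 0.684 CPKM in striatum and 0.036 to 0.0882 CPKM in hippocampus, and no change of the regional difference was called there.

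What sets hippocampus against striatum apart from cortex against striatum is the difference between hippocampus and cortex, in which the striatal libraries cancel. For reference, cortex against striatum gave 237 TAPEs higher in cortex (12.7%) and 237 higher in striatum (12.7%). Between hippocampus and cortex, 65 TAPEs were higher in hippocampus (3.48%) and 71 higher in cortex (3.8%). Without cortex vehicle replicate 3, the library with 2 region labels, these counts were 43 and 29. Of the 246 TAPEs higher in hippocampus than in striatum, 53 were also called higher than in cortex (38 without that library), and of the 336 higher in striatum, 31 were called lower in hippocampus than in cortex (15 without it). These counts share the 3 hippocampal libraries with the main contrast and are therefore descriptive. Side by side, the 246 had a median of 1.28 log2 units above striatum and 0.46 above cortex, and the 336 had medians of -1.12 and -0.36. A TAPE not called against cortex is not shown to be equal there.

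The 5 TAPEs that were higher in hippocampus than in both regions with the smallest adjusted p against cortex included 3 of the leading elements above. These were the Synpr element (2.34 ± 0.2 log2 units above cortex, adjusted p = 1.5e-06), the Opcml element (0.91 ± 0.1, adjusted p = 2.7e-05) and chr14:11498397-11500933, 243397 bp from Hnrnpd, at 1.05, 1.03 and 1.29 CPKM in hippocampus, 0.303, 0.332 and 0.304 in cortex and 0.167 to 0.313 in striatum (1.68 ± 0.19 log2 units above cortex, adjusted p = 2.7e-05). The others were the far Grik4 element (1.91 ± 0.24, adjusted p = 0.00011) and chr9:17483766-17485070, 144077 bp from Vegfa. Hnrnpd and Vegfa themselves were lower in hippocampus than in striatum, at -1.31 and -0.98 SD (limma adjusted p = 0.0047 and 0.00094). The Prox1 element stood 2.52 ± 0.35 log2 units above cortex (adjusted p = 0.00021; 0.0055 without cortex replicate 3) and the Apcdd1 element 2.08 ± 0.27 (adjusted p = 0.00013). By contrast, the Bhlhe22 element held 0.298, 0.271 and 0.276 CPKM in cortex and was not called against hippocampus (-0.29 ± 0.29 log2 units, adjusted p = 0.63), and the strongest Nr2f1 element had an adjusted p of 0.059.

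On the other side, the element at chr2:254530148-254533893 held 0.00944, 0.0184 and 0.00967 CPKM in hippocampus, 0.428, 0.313 and 0.448 in cortex and 0.268 to 0.345 in striatum. It was 2.56 log2 units lower than striatum, at -2.56 ± 0.25, and -2.83 ± 0.3 against cortex (adjusted p = 1.9e-05), so hippocampus was the region in which it was low. The 1 gene within 1 Mb, LOC102547949, ran the other way (r = -0.79). That gene was 2.4 SD higher in hippocampus than in striatum (limma adjusted p = 4.3e-05). At chr7:124669911-124674064, 8307 bp from Mpped1, a metallophosphoesterase gene, the order was cortex (0.79 to 1.19 CPKM), striatum (0.335 to 0.516 CPKM), hippocampus (0.0596 to 0.104 CPKM), with -2.89 ± 0.25 log2 units between hippocampus and cortex (adjusted p = 1.5e-06). Mpped1 followed the same order at -2.32 SD against cortex and -0.39 SD against striatum. The element at chr19:42428365-42431675 held 0.146 to 0.198 CPKM in hippocampus, 0.529 to 0.673 in cortex and 0.813 to 0.887 in striatum.

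In a few elements cortex lay on the far side of striatum. At the Vegfa element hippocampus held 0.488, 0.884 and 0.708 CPKM, striatum 0.162, 0.232, 0.185 and 0.199 and cortex 0.135, 0.0634 and 0.0228 CPKM. The difference from striatum was 1.58 ± 0.22 log2 units for hippocampus (adjusted p = 9.4e-05) and -1.08 for cortex (adjusted p = 0.014). Vegfa itself ran the other way, at -0.98 SD in hippocampus relative to striatum. The best-correlated gene was Spats1 at 427526 bp (r = 0.8), which was 1.91 SD higher. A TAPE at chr5:81152652-81154110 lies 232813 bp from the start of Pappa1 but just past the end of that gene, at 81150940. Its correlation with Pappa1 was r = 0.95, and whether its reads continue the Pappa1 transcript was not tested. The TAPE held 0.8, 0.85 and 0.906 CPKM in hippocampus, 0.4 to 0.603 in striatum and 0.246 to 0.33 in cortex. It was 0.77 ± 0.18 log2 units above striatum in hippocampus (limma adjusted p = 0.0037) and -0.68 in cortex (limma adjusted p = 0.019). Near Myl12b, chr9:119300840-119302712 gave 1.31 ± 0.32 and -0.92 log2 units, the latter at an adjusted p of 0.049. Without the minimum level, the calls against striatum of the Pappa1 and Myl12b elements were lost (adjusted p = 0.24 and 0.21).

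**Figure D5:**
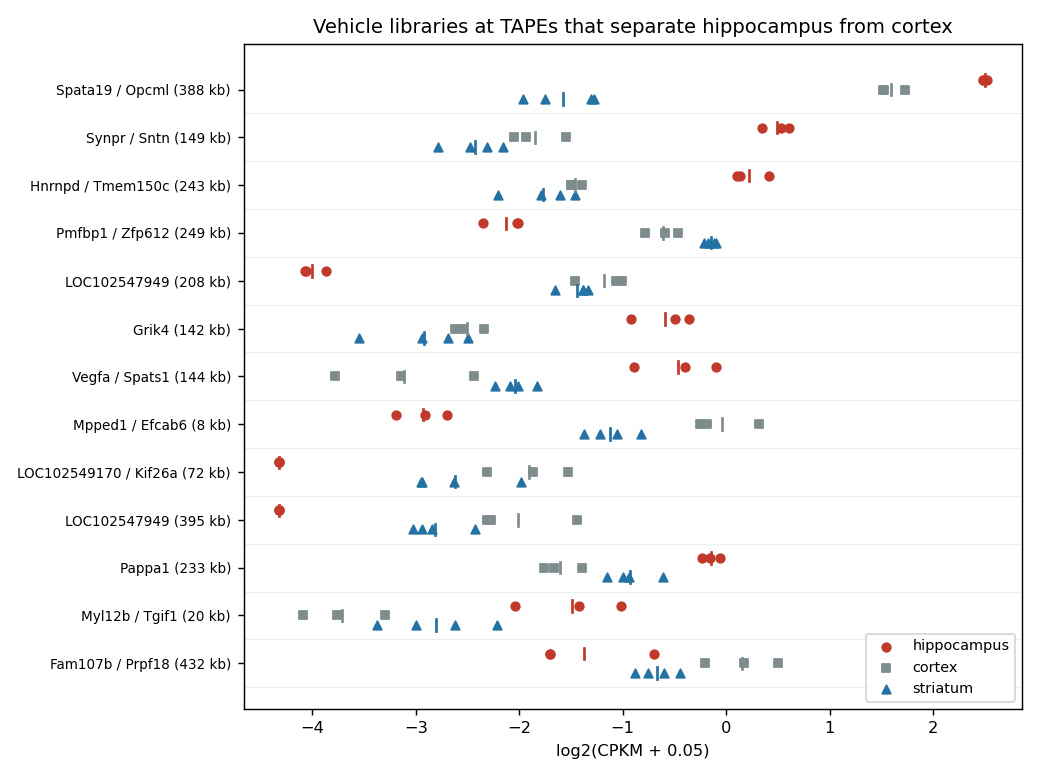
Single vehicle libraries (points) and group means (bars) on log2(CPKM + 0.05) at the TAPEs with the smallest adjusted p between hippocampus and cortex among those called against striatum, and at those where cortex and hippocampus lie on opposite sides of striatum. Rows are labelled by the nearest gene, the best-correlated gene where different, and the distance to the nearest start site; the Grik4 and Vegfa elements show hippocampus apart from both other regions, and the LOC102547949 and Mpped1 elements show it below both.

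Among genes, 2767 were higher in hippocampus than in cortex (16.5%) and 2444 higher in cortex (14.6%). Of the patterning list 6 of 11 were above cortex and 2 below. Prox1 (2.11 SD, adjusted p = 0.00037), Wnt8b (2.28 SD), Lhx9 (2.23 SD) and Lef1 (1.91 SD) were above it, while Nr2f1 (-0.37 SD, adjusted p = 0.037) and Fezf2 (-1.08 SD) were below and Emx1 was not called (-0.19 SD, adjusted p = 0.28). Of the 10 field markers 5 were above cortex, among them Grik4 (2.2 SD), Trpc6 (2.15 SD) and C1ql2 (2.27 SD), 2 were below and 3 were not called. Of the pallial glutamatergic list 4 of 16 were above cortex and 7 below, with Neurod1 at 1.61 SD and Slc17a6 at 1.69 SD above it, and Tbr1, a factor of early cortical neurons, at -1.65 SD below. Of the Dlx and GABAergic list 3 of 16 were called against cortex, all above it, and Gad1 (0.06 SD), Gad2 (0.03 SD) and Dlx1 (0.09 SD) were not. Striatal signalling genes were above cortex for 2 of 17 and below for 7, and striatal lineage factors for 1 of 15 and 5. Wnt genes were split, with 7 of 18 above cortex and 7 below. Of the astrocyte list 4 of 9 were above cortex and 4 below, and its mean level in cortex was 0.68 to 0.78 SD. Gfap stood 2.02 SD above cortex, whereas Aldh1l1, a general astrocyte marker, stood at -2.14 SD. Choroid and Cajal-Retzius genes were above cortex for 3 of 5 and below for 1, with Ttr, the transthyretin of choroid plexus, at 1.14 to 1.67 SD in hippocampus and -0.63 to -0.56 SD in cortex.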

How the data were processed

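Total RNA of 19 rat culture libraries (ribosomal RNA depleted, directional, paired-end) was analysed as TAPE levels. According to the methods and labels, the authors trimmed reads with Trim Galore 0.4.5, aligned them to rn6 with STAR and handled alignments with SAMtools 1.9. TAPEs were defined on pooled data and counted in SeqMonk. The deposited CPKM values, which are RPKM by construction, were taken as they stand. The authors' deposited correlation scores (Pearson's r of each TAPE with each gene starting within 1 Mb, over 19 libraries and per region) were used to solve gene profiles. A profile came out for 16733 of 17715 symbols (94.5%). Of these, 538 were solved from all libraries and from single regions, and both solutions agreed within 9.5e-14. All CPKM values were whole multiples of 1 read, within a tolerance of 0.02, which gave the library sizes.

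TAPEs whose CPKM averaged 0.05 or more in the series were tested with limma 3.58.1 in R 4.3.3 on log2(CPKM + 0.05), with Benjamini-Hochberg adjustment over all tested TAPEs at 0.05. Fits held only the libraries compared, except for the interaction, which used the vehicle and KCl libraries of both regions. Gene profiles were tested with limma on their standardised values, with no log scale, and adjusted over all solved genes. The fit of TAPEs let the variance follow the mean level, and the fit of genes did not. Both tests were first run on simulated data. Library depth was 46.4 to 72.5 M reads over the series, and floors and intervals cover counting error only. Floors count both reads of a pair, so they are not bounds in fragments. Named TAPEs were the 12 per direction with the smallest adjusted p and no overlap between groups, up to 3 per gene list and direction, the 5 per direction with the smallest adjusted p against cortex, the interaction call and those where cortex and hippocampus lay on opposite sides of striatum, the last chosen after their values were seen. Elements of miRNA genes and of runs within 100 kb, and further genes of the lists, were also chosen after their values were seen. Distances run from the TAPE centre to the gene start in rn6. The members and gene lists were chosen with earlier results of these data known. Groups follow sample titles. Replicate numbers are shared by the hippocampal and cortical libraries, but their deviations from the group means correlated at 0.013, -0.021 and -0.0013, so they were not treated as pairs. No TAPE sequence is printed, since no rn6 genome was used here. Results for some genes are not reported here.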

Additional observations from a re-analysis of the deposited data

Results flagged for a closer look

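Within the 4 resting striatal libraries, 1 library stood apart from the other 3 at 5 of the 55 named TAPEs, by the ratio of its gap to the group's range. Chance alone flags about 1 in 20 such groups where values vary continuously. That rate does not hold where 3 libraries are at 0, because the ratio is then 1 for any reading in the other. At the Prox1 element, striatum replicate 8 held 0.0235 CPKM and the others 0 (ratio 1). At the Nr2f1 element chr2:5559777-5561615, replicate 4 held 0.0219 CPKM and the others 0 (ratio 1). At the Bhlhe22 element chr2:102680053-102681830, replicate 6 held 0.0194 CPKM and the others 0 (ratio 1), and at chr2:103378784-103382095, whose best-correlated gene is also Bhlhe22, replicate 8 held 0.0104 CPKM and the others 0 (ratio 1). In these elements the library that stood apart was the one with any read. At chr12:51001616-51003380 near Mn1, replicate 4 held 0.0913 CPKM and the others 0.235 to 0.254 CPKM (ratio 0.882).

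The regional difference depended on KCl at chr4:77413446-77416130 near Ezh2, where hippocampus minus striatum was 2.1 ± 0.33 log2 units larger with KCl than with vehicle (limma interaction, adjusted p = 0.0021).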

How the results depend on the processing

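Leaving out each library in turn gave 463 to 524 TAPEs called between hippocampus and striatum, against 582 with all 7, and no such setting, pseudocount or test changed the count by more than 1.5 times. Fitting every TAPE gave 248 calls (134 higher in hippocampus, 114 in striatum), and a minimum mean of 0.1 CPKM gave 352 (156 and 196), both over other numbers of tested TAPEs. All 24 leading TAPEs kept their call under every alternative in which they were tested, as did 38 of the 55 named ones, and the other 17 lost it in the fit of every TAPE. Of these, 7 also lost it with a pseudocount of 0.01, 3 with voom, 2 with centring and 1 in the fit of all 6 groups, and leaving out 1 library ended a call in 38 of the cases run. Hippocampus against cortex was less stable: leaving out 1 library gave 72 to 93 calls against 136 (39 to 44 higher in hippocampus, 29 to 49 higher in cortex), and the fit of every TAPE gave 0 by limma, with 1529 at an unadjusted p under 0.05. Leaving out any library but hippocampus replicate 3 moved these counts by over 1.5 times. With a replicate block this comparison gave 129 TAPEs. For genes the replicate block gave 3579 calls against 5211, with 1584 higher in cortex against 2444, and leaving out 1 library gave 1616 to 2220 higher in cortex. Genes paired with at least 25 TAPEs gave 3535 calls between hippocampus and striatum (1736 and 1799) of a smaller set. No named TAPE or gene changed sign where it was called. No paired analysis was possible because the hippocampal and striatal vehicle libraries share only replicate number 2. The cause of the other changes was not tested. Most tested TAPEs hold few reads, which limits the size of difference that can be called.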
